A study of Mus musculus with 745 samples.

Results

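The genes described here are 8 listed under leukocyte adhesion and von Willebrand factor: Vwf, Vcam1, Icam1, Icam2, Selp, Sele, Lrg1 and Cd40. The name adhesion genes is used below for all 8, although Lrg1 and Cd40 encode a secreted glycoprotein and a receptor. All 8 were chosen by symbol and were among the 20607 gene symbols counted. The study asked how proteins carried in blood enter the brain. It measured RNA in 745 single brain endothelial cells of 3-month-old mice, isolated by FACS after enzymatic dissociation, and no treated, mutant or older animals are among the samples used here. Cell titles divide the cells into 3 sets, Young1 (30.2% of the cells), Young2 (34.6%) and AY_Y3 (35.2%). What a set stands for (animal, pooled animals, plate) and which surface markers were sorted on is not in the labels, so p-values over the sets measure only the spread between them, which may be technical. Values are given in the order Young1, Young2, AY_Y3 throughout.

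White blood cells leave the bloodstream in steps. Selectins (P-selectin from Selp, E-selectin from Sele) catch the cells and let them roll. Immunoglobulin-family ligands (ICAM-1, ICAM-2 and VCAM-1) then bind leukocyte integrins and hold them. Von Willebrand factor, encoded by Vwf, is a large clotting glycoprotein that binds platelets and is stored with P-selectin in Weibel-Palade bodies of endothelial cells. LRG1 is a secreted leucine-rich glycoprotein that modulates TGF-beta signalling through endoglin, and CD40 is a receptor of the TNF receptor family. Leukocyte adhesion takes place mainly in venules, and in the resting brain the vessel wall is known for low levels of the inducible adhesion molecules.

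Levels are CPM, a gene's counts scaled to the same total in every cell. Cells with more than 2000 CPM summed over the markers of any other cell type were left out, which removed 28, 46 and 37 cells and kept 634 in all. Of the removed cells, 80 passed the limit on pericyte markers. Depth ran from 52819 to 2421434 counts per cell, with set medians of 757949, 713031 and 411397. The kept cells were then placed by markers that are not among the 8 genes, each taken as on at 20 CPM or more. Arterial-marker cells had Bmx or Gkn3 without Nr2f2 and Il1r1 (18, 43 and 43 cells, 16.4% of the 634). Venous-marker cells had Nr2f2 or Il1r1 without Bmx and Gkn3 (35, 44 and 40 cells, 18.8%). Capillary-marker cells had none of these 4 but had Cxcl12 or Rgcc (382 cells, or 69, 54.7 and 57.8% of each set). Another 16 cells had arterial and venous markers together and 13 had no marker; these entered no comparison. All 10 general endothelial markers, among them Cldn5 and Cdh5, were at 20 CPM or more in each class, and their summed level over classes and sets lay between 16242 and 19068 CPM. Genes per cell after thinning to 50000 counts had medians of 1882 in arterial-marker, 1548.5 in capillary-marker and 2185 in venous-marker cells. Shares by class are also given from thinned cells, with the classes kept from unthinned counts. Thinning evens out depth but leaves this difference in genes per cell, whose part in the shares was not tested. Shares along single markers, further on, are from unthinned cells. Pericyte markers, 10 of 10 in the table and none at 0, summed to 42.4 to 77.3 CPM per set in arterial-marker, 112.92 to 204.01 in capillary-marker and 111.4 to 256.7 in venous-marker cells. The 8 microglia or macrophage markers, of which Aif1 was at 0, summed to 69.4 to 116.5, 41.3 to 53 and 28.4 to 97.9 CPM per set in the same order. Their part in the results was not tested.

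Sequence upstream of the start site was available in RefSeq's GRCm38.p6 table for 4 of the 8 genes (Icam1, Lrg1, Sele and Selp). The 250 bases before the start are printed for 3 of them, chosen by the shares described below. Icam1 and Lrg1 were more frequent in venous-marker than in arterial-marker or capillary-marker cells, and Sele was almost undetected. Capitals mark the motifs that were found.
Icam1 (chr9:21015690-21015939, plus strand): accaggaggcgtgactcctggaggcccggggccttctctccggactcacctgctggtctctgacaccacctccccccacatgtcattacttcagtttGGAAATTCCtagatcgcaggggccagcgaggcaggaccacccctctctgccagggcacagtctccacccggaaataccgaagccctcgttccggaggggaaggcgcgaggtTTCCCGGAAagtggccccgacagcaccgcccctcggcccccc
Lrg1 (chr17:56121947-56122196, minus strand): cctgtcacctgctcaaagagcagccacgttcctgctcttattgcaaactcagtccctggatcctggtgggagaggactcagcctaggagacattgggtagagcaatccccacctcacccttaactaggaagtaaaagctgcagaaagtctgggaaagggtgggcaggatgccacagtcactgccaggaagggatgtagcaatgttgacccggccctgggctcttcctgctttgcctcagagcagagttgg
Sele (chr1:164047984-164048233, plus strand): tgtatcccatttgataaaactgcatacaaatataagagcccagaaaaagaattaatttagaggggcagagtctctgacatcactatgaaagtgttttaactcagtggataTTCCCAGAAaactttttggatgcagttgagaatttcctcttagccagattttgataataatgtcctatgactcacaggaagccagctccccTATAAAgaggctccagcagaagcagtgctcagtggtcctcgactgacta
The motifs searched on both strands were TATAAA, TTCNNNGAA (the core bound by STAT factors), GGAANTTCC and the NF-kB consensus. Icam1 held GGAANTTCC at -153 to -145 and TTCNNNGAA at -42 to -34, counted from the start site. Sele held TATAAA at -49 to -44 and TTCNNNGAA at -140 to -132. No searched motif was found in the windows of Lrg1 and Selp. Among 32851 promoter windows of this length, 12.4% held TATAAA, 7.02% TTCNNNGAA, 0.813% GGAANTTCC and 3.90% the NF-kB consensus. A match is a description of the letters only, and a site that departs from a searched motif would be missed.

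The 8 genes ranged from present in most cells to nearly absent. Icam2 had a count in 67.7% of the 634 endothelial cells (exact 95% interval 63.9 to 71.3) and Vwf in 35.3% (31.6 to 39.2). Vcam1 was found in 11.7% (9.28 to 14.4), Cd40 in 10.3% (8 to 12.9), Icam1 in 7.41% (5.50 to 9.74) and Lrg1 in 6.62% (4.82 to 8.85). The selectins stood at the bottom, with Selp in 3 cells (0.473%) and Sele in 1 cell (0.158%). Intervals here cover counting error only. Thinned to 50000 counts, the shares were 65% for Icam2, 32.2% for Vwf, 10.4% for Vcam1, 8.99% for Cd40, 6.78% for Icam1 and 5.99% for Lrg1.

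To set genes roughly side by side, levels were divided by the kilobases covered by all annotated exons of a gene together (GENCODE vM21). That length, 16.06 kb for Vwf and 1.41 kb for Lrg1, can exceed the transcript present, so the order is approximate. On this scale Icam2 stood at 226.97 ± 21.4 CPM per kb (mean ± SD, n = 3 sets). Lrg1 followed at 26.9 ± 10.6, Vcam1 at 15.9 ± 10.5, Vwf at 15.1 ± 3.50, Cd40 at 12 ± 2.36 and Icam1 at 7.55 ± 4.14. From Lrg1 to Icam1, the ranges of mean ± SD of neighbours in this order overlapped. Selp and Sele were at 0.0381 and 0.0187 CPM per kb. The low means of the 4 rarer genes came from few cells with a count, most of which held 20 CPM or more. Whether the other cells lacked the RNA or it went undetected was not tested. Cells with Vcam1 had a median of 792 CPM, against 274 for Icam1, 245.6 for Lrg1, 298 for Cd40, 465 for Vwf and 541 for Icam2. Of the 74 cells with Vcam1, 62 reached 100 CPM, and the 8 highest held 40.4% of all Vcam1 CPM.

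**Figure D1:**
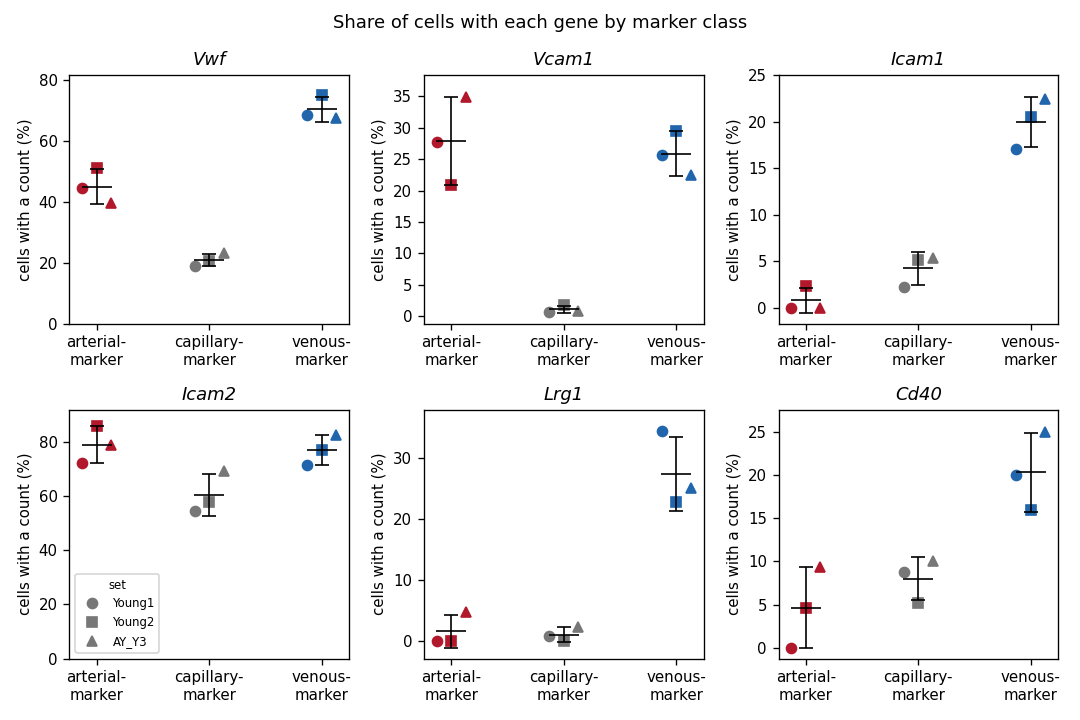
Share of cells with at least 1 count of each gene (vertical axis, %) in arterial-marker, capillary-marker and venous-marker cells. Points are the 3 sets (circle Young1, square Young2, triangle AY_Y3) and black bars the mean ± SD. Vwf shares run from 67.5 to 75% in venous-marker and from 19.1 to 23.1% in capillary-marker cells, while Vcam1 is near 1% in capillary-marker cells and above 20% at both ends.

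Vwf was carried by venous-marker cells most often, then by arterial-marker cells, and by capillary-marker cells least often. Its share was 68.6, 75 and 67.5% in venous-marker cells, 44.4, 51.2 and 39.5% in arterial-marker cells and 19.1, 20.7 and 23.1% in capillary-marker cells. No class overlapped another over the sets, and the same order held after thinning (means of 65.3, 42.4 and 18.1%). Mean levels were 563.3 ± 148.2 CPM in venous-marker, 203.8 ± 53.3 in arterial-marker and 128.04 ± 33.3 in capillary-marker cells. Among the cells that had Vwf, the median was 547 CPM in venous-marker, 376 in arterial-marker and 464 in capillary-marker cells, so the classes differed more in how many cells carried the gene than in how much a carrier held. In edgeR's fit the log2 fold change was 2.04 ± 0.42 (SE) between venous-marker and capillary-marker cells (edgeR adjusted p = 0.338) and 1.59 ± 0.41 between venous-marker and arterial-marker cells (edgeR adjusted p = 0.165). Venous-marker cells had the higher Vwf CPM in 3 of 3 sets against each other class. Between arterial-marker and capillary-marker cells it was 0.45 ± 0.40 (edgeR adjusted p = 0.919).

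Selp and Sele gave almost no signal in any class. Neither was found in venous-marker cells, which allows a share of up to 2.52%, nor in arterial-marker cells, which allows up to 2.88%. Of the 3 cells with Selp, 2 were capillary-marker cells, at 1.78 and 101.4 CPM, and the other had arterial and venous markers together. The cell with Sele was a capillary-marker cell at 36.8 CPM. Vwf, whose protein shares its storage granule with P-selectin, had a count in 35.3% of the cells. Neither selectin passed the filter on low counts of the edgeR fit. Exact two-sided permutation tests of their shares between classes gave p of 0.40 or more.

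Icam2, a constitutive ligand of leukocyte integrins, was spread over every class. Its share was 71.4, 77.3 and 82.5% in venous-marker, 72.2, 86 and 79.1% in arterial-marker and 54.4, 57.8 and 69.2% in capillary-marker cells. Venous-marker and arterial-marker cells overlapped, and the capillary-marker sets lay below both, an order that no longer held without overlap after thinning. Its level barely differed by class, at 410.1 ± 47.2, 501.00 ± 118.01 and 413.3 ± 34 CPM in venous-marker, arterial-marker and capillary-marker cells. The fitted log2 fold changes were -0.05 ± 0.24 (venous-marker against capillary-marker), 0.08 ± 0.25 (arterial-marker against capillary-marker) and -0.12 ± 0.25 (venous-marker against arterial-marker), each with an edgeR adjusted p of 0.902 or more. The sign of each of them turned under some alternative settings.

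Vcam1, the ligand of the integrin VLA-4, marked both ends of the vascular tree and was almost missing between them. Its share was 25.7, 29.5 and 22.5% in venous-marker cells and 27.8, 20.9 and 34.9% in arterial-marker cells, 2 ranges that overlap. In capillary-marker cells it was 0.735, 1.72 and 0.769%, or 4 of 382 cells (exact 95% interval 0.286 to 2.66%). Levels were 413.5 ± 306.8, 199.9 ± 139.1 and 5.52 ± 4.98 CPM in venous-marker, arterial-marker and capillary-marker cells. Single cells weighed heavily: the highest capillary-marker cell held 59.7% of that class's Vcam1 CPM. By set the venous-marker level was 108.8, 722.4 and 409.3 CPM and the arterial-marker level 63.5, 194.8 and 341.5 CPM. The fitted log2 fold change was 7.01 ± 2.07 between venous-marker and capillary-marker cells (edgeR adjusted p = 0.793) and 5.17 ± 1.85 between arterial-marker and capillary-marker cells (edgeR adjusted p = 0.601). For venous-marker against arterial-marker cells it was 1.84 ± 1.56 (edgeR adjusted p = 0.735).

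Icam1, the inducible ligand of the integrins LFA-1 and Mac-1, was unlike Vcam1 in arterial-marker cells. It was found in 1 of the arterial-marker cells (0.962%, exact 95% interval 0.0243 to 5.24), at 662 CPM, and in none of those of Young1 and AY_Y3. That class leaves out cells that also have venous markers, and 6 of the 16 cells with both kinds of marker had Icam1. Over all endothelial cells, Icam1 was in 6.54% of those with Bmx on and 7.59% of those with it off. For Gkn3 on and off, Icam1 shares were 3.85 and 7.73%. In venous-marker cells its share was 17.1, 20.5 and 22.5%, and in capillary-marker cells 2.21, 5.17 and 5.38%. The venous-marker sets lay above both other classes without overlap, also after thinning. Levels were 74 ± 28.4 CPM in venous-marker, 23.1 ± 17.5 in capillary-marker and 5.13 ± 8.88 in arterial-marker cells. The fitted log2 fold change was 1.57 ± 1.65 for venous-marker against capillary-marker cells (edgeR adjusted p = 0.999). Arterial-marker cells of 2 sets held no Icam1 count, and fitted fold changes against them depend on the prior count; their edgeR adjusted p was 0.328 against venous-marker and 0.693 against capillary-marker cells.

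Lrg1, the secreted glycoprotein, was found mostly in venous-marker cells. It had a count in 34.3, 22.7 and 25% of venous-marker cells, in 0, 0 and 4.65% of arterial-marker cells and in 0.735, 0 and 2.31% of capillary-marker cells. Of 42 endothelial cells with Lrg1, 32 were venous-marker cells, 4 capillary-marker cells and 2 arterial-marker cells. Levels were 123.4 ± 64.5 CPM in venous-marker cells, 3.42 ± 5.91 in capillary-marker and 35.8 ± 62 in arterial-marker cells, and in the last class 1 cell at 4278 CPM held 92.6% of the total. Sets without any Lrg1 count make its fitted fold changes depend on the prior count. The edgeR adjusted p was 0.470 against capillary-marker and 0.269 against arterial-marker cells.

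Cd40 was higher in venous-marker cells by a smaller margin. Its share was 20, 15.9 and 25% there, 8.82, 5.17 and 10% in capillary-marker cells and 0, 4.65 and 9.30% in arterial-marker cells. The venous-marker sets again lay above the others, and capillary-marker and arterial-marker sets overlapped. Levels were 90.2 ± 20, 34.8 ± 6.49 and 9.18 ± 8.61 CPM in venous-marker, capillary-marker and arterial-marker cells. The fitted log2 fold change was 0.72 ± 1.55 against capillary-marker cells (edgeR adjusted p = 0.999), and the edgeR adjusted p against arterial-marker cells was 0.645.

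Counted over the genes, the share of cells was higher without overlap between sets in venous-marker than in capillary-marker cells for 6 of the 8 (all but the selectins). Of all genes in at least 5% of the entering cells, 38.2% did the same. After thinning the count was 5 of 8, without Icam2, against 32.3%. Arterial-marker cells lay above capillary-marker cells for Icam2, Vcam1 and Vwf, 3 of 8, against 19.6% of genes, and for Vcam1 and Vwf after thinning, against 16.9%. Venous-marker cells lay above arterial-marker cells for Cd40, Icam1, Lrg1 and Vwf, 4 of 8, against 16.6%, and the same 4 did so after thinning, against 15%. An exact two-sided permutation test of 3 sets against 3 cannot go below 0.10. It gives that value whenever the sets do not overlap, as it did for each of these differences in unthinned shares. The test therefore adds nothing to the lack of overlap, and it does not pair the classes of the same set.

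On summed counts, edgeR's quasi-likelihood test called 0 of the 6 testable genes in each comparison, with p-values adjusted over 8945 genes. It called 0.0335% of all genes between venous-marker and capillary-marker cells, 0.190% between arterial-marker and capillary-marker cells and 1.48% between venous-marker and arterial-marker cells. At an unadjusted p under 0.05 the counts were 3 (Vwf, Vcam1, Lrg1), 1 (Vcam1) and 3 (Vwf, Icam1, Lrg1) of the 6, against 4.04%, 7.40% and 11.3% of all genes. On simulated counts of the first comparison, drawn with the spread of these data, the same fit called 7 of 50 genes changed 4-fold and 24 of 50 changed 16-fold. DESeq2, run as an alternative, called Vwf (adjusted p = 2.68e-06), Lrg1 (2.08e-05) and Vcam1 (0.00138) higher in venous-marker than in capillary-marker cells, where it called 2.26% of all genes. Between venous-marker and arterial-marker cells it called Vwf (0.000340), Icam1 (2.54e-06) and Lrg1 (0.000282) higher, against 10.6% of all genes. Between arterial-marker and capillary-marker cells it called Vcam1 higher (0.0273) and Icam1 lower (0.00107), against 5.63%.

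The other alternative that called several of the genes was limma on the mean of log2(CPM + 10) per set and class, which gives every cell the same weight. It called Vwf, Icam1, Lrg1 and Vcam1 between venous-marker and capillary-marker cells, where it called 0.727% of all genes and the median of all genes was itself shifted by 0.17. For Vwf its difference was 2.89 ± 0.23 on that log2 scale (limma adjusted p = 0.000881). It called Vwf, Vcam1 and Icam2 between arterial-marker and capillary-marker cells (3.06% of all genes) and Vwf, Icam1, Lrg1 and Cd40 between venous-marker and arterial-marker cells (7.45%). Over all alternatives run, the adjusted p of Vwf between venous-marker and capillary-marker cells ranged from 2.68e-06 to 1, with venous-marker cells higher in 14 of 14. That of Vcam1 ranged from 0.00138 to 1 and that of Lrg1 from 2.08e-05 to 1, each higher in 13 of 13.

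**Figure D2:**
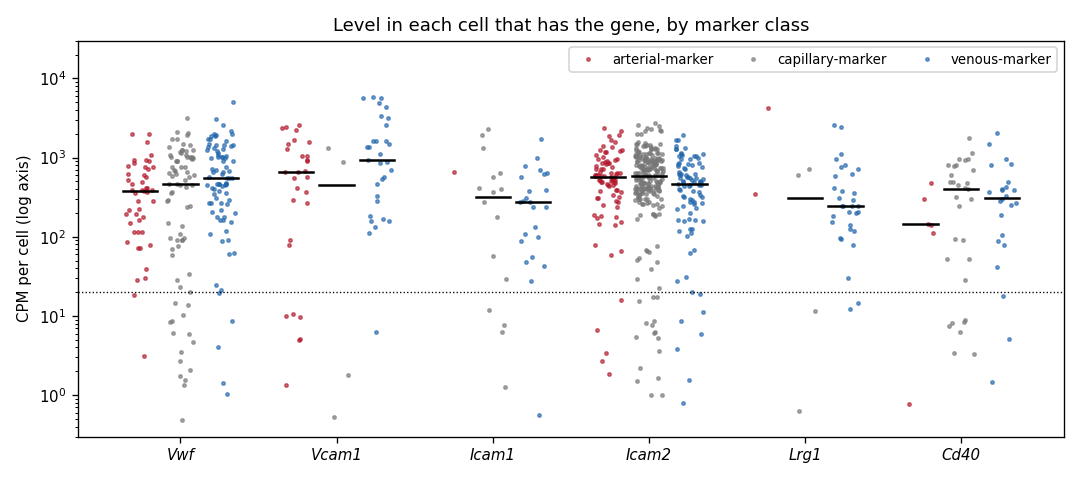
CPM (log axis) in each cell that had a count of the gene, by marker class; points are cells of all 3 sets, black lines medians where more than 3 cells had it, and the dotted line 20 CPM. Carriers of Vwf had medians between 376 and 547 CPM in the 3 classes, and Vcam1 had 4 points in capillary-marker cells against 29 in arterial-marker and 31 in venous-marker cells.

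Within the venous-marker cells the genes did not follow Nr2f2 and Il1r1 alike. Nr2f2 encodes the venous transcription factor COUP-TFII, and Il1r1 the receptor of interleukin 1. Icam1 was found in 0 of 30 cells with Nr2f2 alone, which allows up to 10%, but in 25.6% of 43 cells with Il1r1 alone and in 28.3% of 46 cells with both. By set the last 2 shares were 23.1, 14.3 and 37.5% and 30, 41.2 and 15.8%. Vwf went from 43.3% (33.3, 53.8 and 40%) with Nr2f2 alone to 76.7% (76.9, 78.6 and 75%) with Il1r1 alone and 82.6% with both, and in each set the cells with Nr2f2 alone were lowest. Vcam1 was found in 10, 20.9 and 41.3% of these cells in the same order. Lrg1 was at 20, 23.3 and 34.8%, with Young1 at 25, 23.1 and 60%. Young2 was at 15.4, 14.3 and 35.3% and AY_Y3 at 20, 31.2 and 21.1%, so the pooled order held in no single set. Cd40 was at 26.7, 14 and 21.7%, on 8, 6 and 10 cells. Genes per thinned cell had medians of 1960, 2139 and 2418 in the 3 kinds of cell, and their part in these shares was not tested. Over all endothelial cells, those with Il1r1 on carried Vwf in 78.6% and Icam1 in 28.2%, against 26.9% and 3.39% of those with it off.

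Among arterial-marker cells, Vcam1 was more frequent where Gkn3 was on together with Bmx. It was found in 16.9% of the 59 cells with Bmx alone (18.2, 12.5 and 20.8%). With Bmx and Gkn3 it was found in 45.5% of 33 cells (60, 27.3 and 52.9%), with no overlap between the sets. Young1 gave only 18 arterial-marker cells in all, and how many other genes separate in the same way was not counted. For Vwf the shares were 33.9% (27.3, 45.8 and 25%) and 54.5% (80, 45.5 and 52.9%), and these sets overlapped, with no difference in that direction in Young2. Genes per thinned cell had medians of 1835 with Bmx alone and 2090 with both, and their part in these shares was not tested. The 12 cells with Gkn3 alone carried Vwf in 75% and Vcam1 in 33.3%. Icam2 hardly varied, at 81.4% with Bmx alone and 81.8% with both.

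Along Cxcl12, a chemokine high in capillary endothelium, cells were ranked within their set and split into lower, middle and upper terciles. Vwf was found in 52.4, 31.1 and 22.6% of them, and the order was the same in every set. Vcam1 was found in 24.8, 8.02 and 2.36%, and Lrg1 in 14.3, 5.19 and 0.472%. Icam1 shares were 11.9, 6.60 and 3.77%, but in AY_Y3 the middle tercile was highest (13.3%). Cd40 showed no such order, at 10, 12.7 and 8.02%. Along Rgcc, a cell-cycle regulator also used as a capillary marker, the shares in the lower, middle and upper terciles were 19.5, 13.7 and 1.89% for Vcam1 and 38.6, 43.4 and 24.1% for Vwf. Icam2 fell along both markers, at 74.3, 67.9 and 60.8% for Cxcl12 and 76.2, 68.4 and 58.5% for Rgcc. Median genes per thinned cell were 1840, 1694 and 1629 along Cxcl12 and 1688, 1917 and 1536 along Rgcc. The part of these medians in the shares was not tested.

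**Figure D3:**
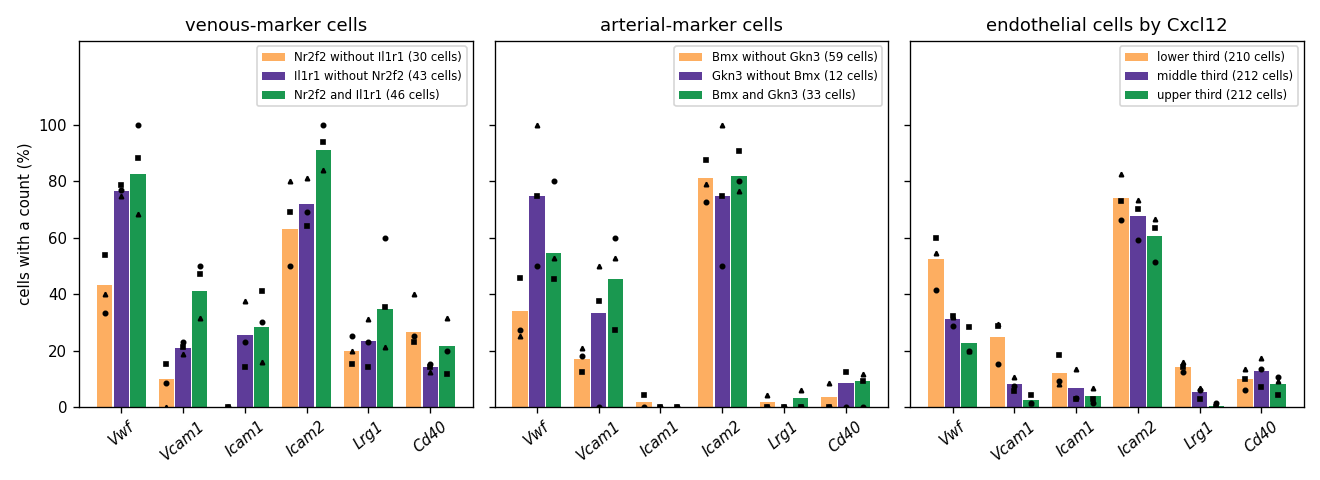
Share of cells with each gene (vertical axis, %) in venous-marker cells split by Nr2f2 and Il1r1, in arterial-marker cells split by Bmx and Gkn3, and in all endothelial cells by tercile of Cxcl12 within each set. Bars pool the cells of the 3 sets and small black symbols are the sets; the Icam1 bar is at 0 in the 30 cells with Nr2f2 alone, and the Vcam1 bar falls from 24.8 to 2.36% along Cxcl12.

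The same cells often carried several of the genes. Of 634 endothelial cells, 493 had at least 1 of the 8, 36.6% at least 2, 16.2% at least 3 and 39 cells (6.15%) at least 4. At least 2 were carried by 74.3, 70.5 and 72.5% of venous-marker cells, 38.9, 53.5 and 48.8% of arterial-marker cells and 17.6, 20.7 and 23.8% of capillary-marker cells, with no overlap between classes. Of the 39 cells with 4 or more, 28 were venous-marker cells, 3 arterial-marker, 3 capillary-marker and 5 had markers of both ends. The 3 cells with 6 of the genes were venous-marker cells, 1 in each set. Cells with more of the genes also had more genes of any kind: the median per thinned cell went from 1417 with none of the 8 through 1610, 1966 and 2335.5 to 2704 with 4 or more, while their median counts were 553767 and 724546 at the 2 ends. The part of this in the overlap was not tested. After thinning, 32.3% carried at least 2.

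**Figure D4:**
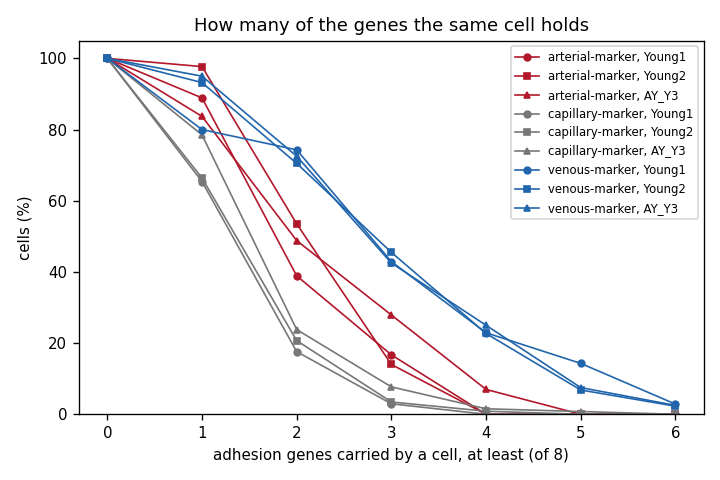
Percentage of cells (vertical axis) that carry at least the number of adhesion genes on the horizontal axis, by marker class (colour) and set (symbol). At 2 genes the venous-marker sets lie between 70.5 and 74.3%, above the arterial-marker sets (38.9 to 53.5%) and the capillary-marker sets (17.6 to 23.8%).

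For the 6 genes other than the selectins, the number of cells with both genes of a pair was set against the product of their shares. All 15 pairs lay above the product over all endothelial cells, 13 of them in each of the 3 sets, with a median ratio of 2.03. No such count was made for pairs of other genes, here or within venous-marker cells. The counts can therefore not be read as particular to these genes. Icam1 and Lrg1 were found together in 15 cells against 3.14 from the product (ratio 4.77), and Vcam1 and Lrg1 in 23 against 4.93 (4.67). Lrg1 cells carried Vcam1 in 46.2, 58.3 and 58.8%, and cells without Lrg1 in 5.43, 10 and 10.1%. Vwf was present in 81.2, 77.8 and 80.6% of cells with Vcam1 and in 25.4, 34.6 and 28.4% of cells without it. Pairs with Icam2 lay between 1.15 and 1.29, and its share of 67.7% limits how high their ratios can go. Cd40 had a ratio of 1.04 with Vcam1, 1.46 with Vwf, 2.03 with Lrg1 and 2.24 with Icam1.

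Within the venous-marker cells alone the ratios were lower, except that of Cd40 with Vcam1 (1.14). The median ratio there was 1.20, and 10 of 15 pairs lay above the product in every set. Shares were higher in this class, with Vwf at 70.6% against 35.3% of all endothelial cells. A higher share lowers the highest ratio that a pair can reach, so lower ratios here do not show weaker overlap. The trio of Vcam1, Icam1 and Lrg1 kept the highest values, with 2.41 for Vcam1 and Icam1 (15 cells against 6.23), 2.05 for Vcam1 and Lrg1 and 2.05 for Icam1 and Lrg1. All 24 venous-marker cells with Icam1 also had Vwf, against 16.9 from the product. Their ratio of 1.42 is the highest that this pair could reach. Cd40 pairs lay between 1.02 and 1.23. Thinned, the venous-marker ratios of the trio were 2.40, 2.13 and 2.16. These ratios are descriptions of cells within 3 sets and carry no p-value.

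**Figure D5:**
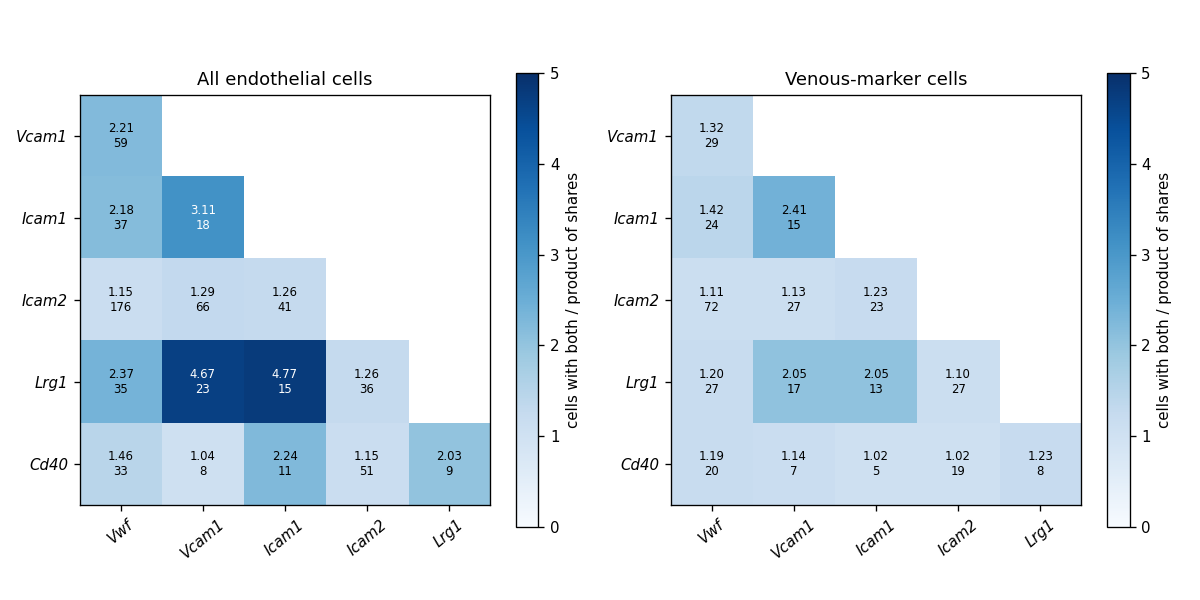
Ratio of the number of cells with both genes to the number given by the product of their shares (colour and upper figure) and cells with both (lower figure), in all 634 endothelial cells (left) and in the venous-marker cells (right). Pairs of Lrg1 with Icam1 and Vcam1 reach 4.77 and 4.67 on the left, and Vcam1 with Icam1 reaches 2.41 on the right.

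Across the 634 cells, the genes most like Vwf by within-set correlation of log2(CPM + 10), out of 6836 genes, included the marker Il1r1 (mean r = 0.44), Vcam1 (0.38), the transglutaminase Tgm2 (0.35) and Gm9844 (0.35). For Vcam1 they included Il1r1 (0.38), Vwf (0.38), Tmem176a (0.36) and H2-Q7 (0.34), whose reads can be shared with near-identical H2-Q genes. For Icam2 and Cd40 no gene passed 0.21, too weak to be read. The leading genes of these were Ptprr (0.20) for Icam2 and Chpt1 (0.21) for Cd40. Icam1 and Lrg1 were in too few cells for this ranking. Vwf correlated with Nr2f2 at 0.28 and with Cxcl12 at -0.28, and Vcam1 at 0.33 and -0.31. The points are cells that share a set and its depth, and no p is given.

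Other genes of the same pathways were taken as 6 lists. None of their genes was called between venous-marker and capillary-marker cells. The median fitted log2 difference was 0.26 over 21 tested genes of TNF, interleukin 1 and NF-kB signalling, 0.14 over 13 Weibel-Palade body genes, 0.64 over 5 coagulation genes, -0.11 over 16 transmigration and junction genes, -0.53 over 11 genes of TGF-beta co-receptor signalling and -0.27 over 2 chemokines and cytokines, against -0.03 over all genes and 1.81 over the 6 adhesion genes. Between arterial-marker and capillary-marker cells only the tetraspanin gene Cd9, of the transmigration list, was called in any of the lists, higher by 2.09 ± 0.22 (edgeR adjusted p = 0.0191, 3 of 3 sets).

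Between venous-marker and arterial-marker cells, 6 listed genes were called and all were lower in venous-marker cells, in 3 of 3 sets each, where 1.48% of all genes were called. They were 3 of 11 tested in the TGF-beta list, and 1 each of 16 in the transmigration, 13 in the Weibel-Palade body and 5 in the coagulation list. From the TGF-beta list came Eng, the endoglin through which LRG1 acts (1244 ± 155.2 against 2107 ± 719.2 CPM, edgeR adjusted p = 0.0445), its partner receptor Acvrl1 (565.5 ± 168.7 against 1082 ± 74.6 CPM, adjusted p = 0.0426) and the inhibitory Smad6 (9.87 ± 6.37 against 81.6 ± 36.2 CPM, adjusted p = 0.0468). The others were Cd9 (edgeR adjusted p = 0.00926), Igfbp7 of the Weibel-Palade list (0.0360) and the annexin Anxa5 (0.0422). Lrg1 itself was found mostly in venous-marker cells, where Eng still had a mean share of 95.3% of cells. No gene of TNF, interleukin 1 and NF-kB signalling was called in any comparison, and the median difference of that list between venous-marker and arterial-marker cells was 0.92, against 0.07 over all genes and 2.27 over the 6 adhesion genes. Ackr1, a chemokine-binding protein of venules, had a count in 0.473% of endothelial cells.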

How the data were processed

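RNA of 745 single mouse brain endothelial cells was analysed from whole-number read counts per gene, deposited by the authors without normalization. Bowtie 0.12.2 and the builds mm8 and mm10 appear in the submitters' processing notes, which do not say what each was used for; the counting tool, annotation, strandedness and use of molecular identifiers are not stated in the labels. Counts ran from 52819 to 2421434 per cell, and PCR reads are not independent molecules, so intervals (exact binomial, 95%) and the limits that a count of 0 allows (3 counts) cover counting error only. Of 20607 symbols, 708 had no count. No coordinates come from the counts; promoter windows come from RefSeq (GRCm38.p6).

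CPM used each cell's total. Cells over 2000 CPM on another cell type's markers were left out, no doublet caller was run, and classes were set by 6 segment markers on at 20 CPM, which are not among the genes tested (23 cells would change class at 10 CPM and 19 at 40 CPM). Counts were summed per set and class (9 sums). The sums were fitted in R 4.3.3 by the quasi-likelihood method of edgeR 4.0.16, with TMM normalization and a term for each set as block (4 residual degrees of freedom), because every set gave all 3 classes, and p-values were adjusted by Benjamini-Hochberg over 8945 genes that passed filterByExpr and were detected in 5% or more of entering cells, at a threshold of 0.05. The SE printed with edgeR fold changes was computed as the absolute log2 fold change divided by the square root of its F statistic. DESeq2 1.42.0 and limma 3.58.1 were alternatives. The edgeR fit was tested on simulated data. Named genes were the 8 members, the 5 genes most correlated with each member found in at least 10% of cells, and called genes of 6 related lists (at most 6 per list and comparison). Some genes that this rule names are not reported here. The members, lists and tests were chosen with earlier results of these data known. Python 3.11.15, numpy 2.4.6, pandas 2.3.3, scipy 1.17.1 and matplotlib 3.10.9 were used.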

Additional observations from a re-analysis of the deposited data

Results flagged for a closer look

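The 16 cells with arterial and venous markers together entered no comparison, and the adhesion genes were frequent in them. Vcam1 was found in 56.2% of them, Icam1 in 37.5% (5 of its 6 cells were from AY_Y3), Vwf in 75% and Icam2 in 93.8%. By set these cells numbered 1, 7 and 8, and genes per thinned cell had a median of 2604, against 2185 in venous-marker and 1882 in arterial-marker cells; the part of that in these shares was not tested. Cd40 and Lrg1 were each found in 3 of the 16, and Cd40 had the lower mean level there, 10.7 CPM against 35.1 in capillary-marker cells. These cells are listed because they lie outside the comparisons and carry some of the genes more often than any marker class, with sets pooled. The genes concerned are Vcam1, Icam1, Vwf and Icam2. Cd40 and Lrg1, at 18.8% each, were less frequent in these cells than in venous-marker cells (20.2 and 26.9%).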

How the results depend on the processing

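Of the 6 testable adhesion genes, edgeR called 0 in each comparison with every set left out in turn, with no filter on low counts, with markers on at 1 count or 100 CPM, with classes by highest marker score, and with no cell or cells over 500 CPM of another type left out. With a count required in at least 20% of cells, Vwf and Icam2 were the 2 left to test, and neither was called. DESeq2 called 3 between venous-marker and capillary-marker, 2 between arterial-marker and capillary-marker and 3 between venous-marker and arterial-marker cells; limma called 4, 3 and 4. Cells thinned to 50000 counts gave 1 call, Vwf between venous-marker and arterial-marker cells. Without the replicate block, edgeR called 0 of the adhesion genes in each comparison, and of all genes 0.158% between venous-marker and capillary-marker and 0.372% between arterial-marker and capillary-marker cells.

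The percentage of all tested genes called moved more. Between venous-marker and capillary-marker cells, 0.0335% became 2.26% by DESeq2, 0.727% by limma, 0.0103% with no filter, 0.0512% with the 20% filter, 0.0561% with markers on at 1 count, 0.0559% at 100 CPM, 0.0654% with score classes, 0% with no cell left out, and 0 to 0.0561% with a set left out (0.0561% without Young1, 0 without Young2 or AY_Y3). Between arterial-marker and capillary-marker cells, 0.190% became 5.63% by DESeq2, 3.06% by limma, 0.0568% with no filter, 1.18% with the 20% filter, 0.0671% at 100 CPM, 0.109% with score classes, 0.471% with no cell left out, 0.125% with the 500 CPM limit, 1.25% thinned, and 0 to 0.0561% with a set left out (0.0561% without Young1, 0 without Young2 or AY_Y3). Between venous-marker and arterial-marker cells, 1.48% became 10.6% by DESeq2, 7.45% by limma, 0.393% with no filter, 3.91% with the 20% filter, 0.850% at 100 CPM, 0.796% with the 500 CPM limit, 3.28% thinned, and 0 to 0.797% with a set left out (0.797% without Young1, 0.0113% without Young2, 0 without AY_Y3).

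The log2 fold change turned sign only for Icam2 and Lrg1, none of them a call. Icam2 between venous-marker and capillary-marker cells ran from -0.13 to 0.11 with a set left out (0.11 without Young1) and was 0.59 with limma. Between arterial-marker and capillary-marker cells it ran from -0.24 (without AY_Y3) to 0.42, and was -0.01 with no filter and -0.07 with the 500 CPM limit. Between venous-marker and arterial-marker cells it ran from -0.31 to 0.11 (without AY_Y3) and was 0.04 with the 500 CPM limit. Lrg1 between arterial-marker and capillary-marker cells ran from -1.68 to 3.82, the lowest without AY_Y3, which holds its arterial-marker counts, and was -0.17 with markers on at 1 count. The cause of the other changes was not tested.

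Cell numbers limit the rare genes: shares near 1% rest on 1 to 4 cells, while thinning to 50000 counts moved the share of Lrg1 over all endothelial cells from 6.62 to 5.99% and that of Icam1 from 7.41 to 6.78%. In the simulated comparison of venous-marker with capillary-marker cells, 0 of 50 genes changed 2-fold were called, so differences of that size can go uncalled there. Between venous-marker and arterial-marker cells the fit did call smaller differences, such as Igfbp7 at a log2 fold change of -0.76. The class of a cell comes from 2 markers per segment.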
